A study of Drosophila melanogaster with 12 samples.

Results

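The genes encoding the protein components of the cytosolic ribosome were described across larval salivary glands of Drosophila melanogaster. All genes whose symbol starts with RpL or RpS followed by a number or by P were taken, which gave 92 of the 13825 quantified genes, 54 named for the large and 38 for the small subunit. Genes of the mitochondrial ribosome, which carry the prefix mRp, are not among them, and sta, which encodes the small subunit protein RpSA, falls outside the rule by its name. The choice used gene names only and no measured value.

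Transcriptomes had been sequenced from 4 groups of glands with 3 libraries each, all taken at 96 hr after egg deposition. The first group were entire RasV12-glands, in which the driver Bx-Gal4 expressed UAS-RasV12, a dominant-active Ras, across the secretory epithelium. The second were entire lglRNAi;RasV12-glands, in which the same driver also expressed UAS-l(2)glRNAi against the polarity gene l(2)gl. The third were isolated proximal parts of such glands (lglRNAi;RasV12-PP, or PP), a piece which the study's text calls proximal and the sample labels posterior. The controls were entire w1118-glands, which carried Bx-Gal4 without a UAS-transgene. According to the labels the larvae of all groups, w1118 included, also carried the reporter Drs-GFP, whereas the study's list of crosses gives the reporter for the cross with lglRNAi;RasV12 alone, so that whether it differed between the groups is not settled. Each library came from pooled glands, so that p-values measure the spread between pools.

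A ribosome consists of a small subunit, which reads the mRNA, and a large subunit, which joins amino acids into a chain. Each subunit is built in the nucleolus from ribosomal RNA and a fixed set of proteins, most of them present once per ribosome, and their genes are among the most highly expressed in any growing cell. In flies, a reduced dose of many of these genes gives the Minute phenotype of delayed growth and thin bristles. Translation of their mRNAs is also regulated through TOR signaling, so that mRNA levels do not give the rate at which the proteins are made. The larval salivary gland is a polyploid secretory tissue, which in the third larval instar produces the glue proteins encoded by the Sgs-genes.

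The libraries held between 27584224 and 73043536 estimated counts. Ras85D, whose reads were not told apart from those of a transgene, reached between 2041 and 3453 CPM (counts scaled to a common library size, normalized by edgeR's TMM method) in the 9 libraries with RasV12, against 54.3 to 75.03 CPM in w1118-glands. For l(2)gl, the target of the RNAi, entire lglRNAi;RasV12-glands had 148 to 191 CPM and the PP 207, 281 and 242 CPM, against 244 to 286 CPM in RasV12-glands and 140 to 189 CPM in w1118-glands. Of the groups with the RNAi, entire glands overlapped with w1118-glands, whereas the PP was above all w1118-libraries and overlapped with RasV12-glands. The 7 summed glue genes took 9.78% to 11.2% of the counts in RasV12-glands, 9.43% to 10.9% with lglRNAi;RasV12 and 5.18% to 6.03% in the PP, against 26.8% to 37.1% in w1118-glands. The TMM factors, which rescale the libraries for such differences in composition, were between 1.04 and 1.14 in the groups with RasV12, against 0.73 to 0.83 in w1118-glands. The median difference between transcript length and effective length, a measure of the fragment length in a library, was 224 to 228 bases in RasV12-glands, 223 to 226 with lglRNAi;RasV12 and 229, 231 and 263 in the PP, against 213 to 221 in w1118-glands. PP-replicate 3 with 263 bases stood apart.

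Scaled per transcript length, ribosomal protein genes took a higher share in each group with RasV12 than in w1118-glands. In both groups of entire glands they took a lower share of the counts that did not come from glue genes. In TPM (estimated counts per transcript length, scaled to the same sum in every library), their summed share was 17.6%, 16.9% and 18.1% in RasV12-glands, 16.0%, 17.1% and 16.8% with lglRNAi;RasV12 and 18.7%, 17.3% and 16.9% in the PP, against 10.8%, 14.3% and 13.6% in w1118-glands. By TPM every library with RasV12 was above every w1118-library, and w1118-replicate 1, which held the highest glue share, was the lowest of all. Of all counts, the share was 7.96% to 8.45% in RasV12-glands, 6.95% to 7.84% with lglRNAi;RasV12 and 8.46% to 9.77% in the PP, against 6.48% to 7.71% in w1118-glands. Here lglRNAi;RasV12-glands overlapped with w1118-glands, and the RasV12-glands and the PP were above them. Among the counts outside the 7 glue genes, the share was 8.92%, 9.25% and 9.37% in RasV12-glands, 7.68%, 8.76% and 8.62% with lglRNAi;RasV12 and 10.3%, 9.70% and 9.01% in the PP, against 10.3%, 10.5% and 10.8% in w1118-glands. By this measure both groups of entire glands with RasV12 were below w1118-glands without overlap, whereas PP-replicate 1 reached the lowest w1118-library. Outside the glue genes the share of TPM was 23.4% to 24.1% in RasV12-glands, 21.0% to 22.6% with lglRNAi;RasV12 and 18.9% to 21.2% in the PP, against 23.3% to 24.2% in w1118-glands, and here RasV12-glands overlapped with w1118-glands.

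**Figure D1:**
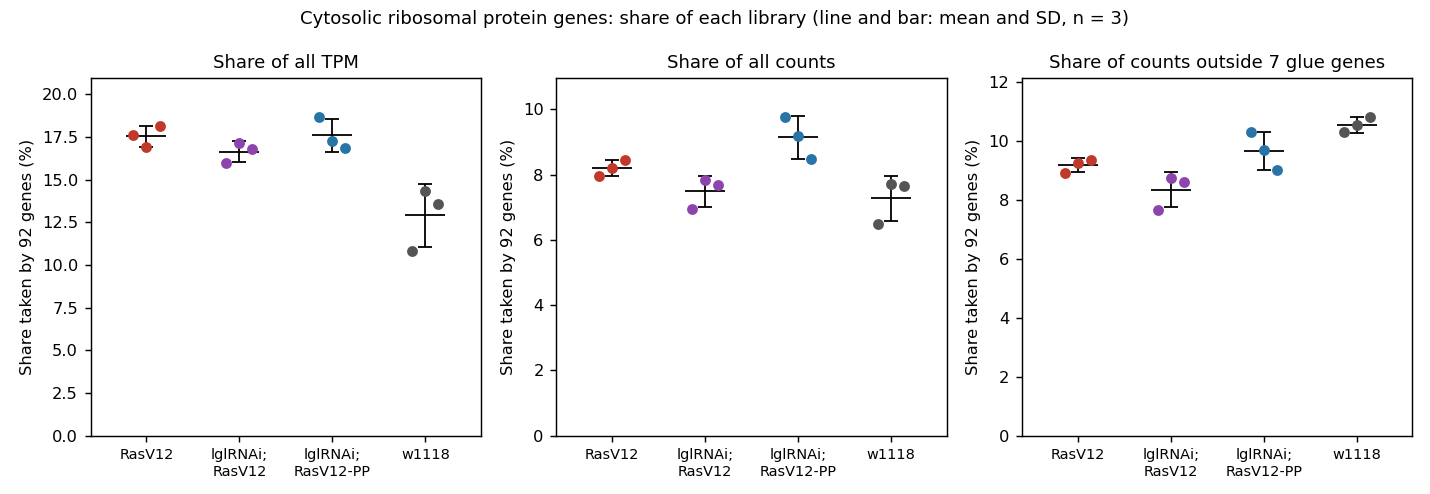
Share of each library taken by the 92 ribosomal protein genes, in percent of all TPM (left), of all counts (middle) and of the counts outside 7 glue genes (right), for RasV12, lglRNAi;RasV12, lglRNAi;RasV12-PP and w1118; points are libraries, lines and bars mean and SD of 3. The share of TPM averages 17.5%, 16.7% and 17.6% in the groups with RasV12 and 12.9% in w1118. The share of all counts averages 8.21%, 7.49% and 9.14% in the groups with RasV12 and 7.28% in w1118. The share of counts outside the glue genes averages 9.18%, 8.35% and 9.67% in the groups with RasV12 and 10.5% in w1118.

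Within each library, most of these genes were expressed at comparable levels, and a small number stood far below. Of the 84 genes that passed the filter for low counts, 78 had a mean of at least 1000 TPM over all libraries. RpL41, which encodes the smallest ribosomal protein, had the highest level with 8952 ± 466 TPM with RasV12 alone, 8061 ± 594 TPM with lglRNAi;RasV12 and 8518 ± 1627 TPM in the PP, against 5671 ± 1066 TPM in w1118-glands (SD, n = 3). It was followed by RpL39 (4352 TPM over all libraries), RpS23 (3647 TPM), RpLP1 (3492 TPM) and RpL27A (3442 TPM), of which the last 3 differed by less than the SD between the w1118-libraries. The order of levels was largely kept between the groups: across the 81 genes without the suffix -like, Spearman's rho of the mean TPM with w1118-glands was 0.96 for RasV12-glands, 0.89 for lglRNAi;RasV12-glands and 0.92 for the PP, a description across genes that share libraries and lengths. The summed TPM of the large subunit exceeded that of the small by 1.57- to 1.64-fold in RasV12-glands, 1.55- to 1.56-fold with lglRNAi;RasV12 and 1.54- to 1.60-fold in the PP, against 1.51- to 1.56-fold in w1118-glands, and RasV12-glands did not overlap with w1118-glands.

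The 6 tested genes below this level were RpS14b (706 TPM over all libraries) and RpL34a (219 TPM), which are second copies of a ribosomal protein gene, RpS15Ab (57.6 TPM), also a second copy, and RpL24-like (68.5 TPM), RpL7-like (21.96 TPM) and RpLP0-like (15.5 TPM). The yeast counterparts of the last 3, Rlp24, Rlp7 and Mrt4, act in the assembly of the large subunit in the nucleolus and are not part of the finished ribosome. The other 8 genes were too low to be tested. RpL10Aa, RpL37-2 and RpS10a had no count in any of the 12 libraries, RpS28a and RpS19b at most 1 and 2 counts, RpS28-like at most 6, RpL22-like at most 10 and RpS5b at most 11 counts. RpS5b, RpS19b and RpL22-like are known in flies for expression in the germline, and RpS5b had no count in any w1118-library. With a floor of 3 counts, which corresponded to 0.041 to 0.109 CPM and covers counting error only, RpS5b exceeded the floor in 7 libraries and RpL22-like in 6.

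The first comparison asked how dominant-active Ras changed ribosomal protein mRNAs in entire glands. After TMM normalization, 41 of the 84 tested genes were lower and only RpL7-like was higher in RasV12-glands than in w1118-glands (edgeR's quasi-likelihood test, Benjamini-Hochberg adjusted p of at most 0.05 over 9012 genes). Among all tested genes, 23.1% were lower and 25.8% higher by the same limit. The shifts were small and alike: the median log2 fold change was -0.25, the interquartile range 0.16, and 80 genes were below 0, whereas all tested genes had a median of 0.00 and an interquartile range of 0.90. RpS15Ab was the only gene to reach a log2 fold change of 1 in size, where 8.99% of all tested genes were lower and 11.3% higher by this limit. Small subunit genes were lower in 22 of 33 cases (median -0.31) and large subunit genes in 19 of 48 (median -0.23), and the difference between the subunits was not tested.

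This direction depended on the scale. With library size alone, 18 of the 84 genes were higher and 1 was lower when RasV12 was expressed (median 0.17), where 49.3% of all tested genes were higher and 9.21% lower and the median of all genes was 0.42. On the log2(TPM + 1) scale, tested with limma, 70 were higher and 1 was lower (median 0.46), beside 61.9% higher and 5.43% lower among all genes and a median of 0.49. On each of the 3 scales the median ribosomal protein gene lay below the median of all genes, although by less on the TPM scale. Without the counts of 10 salivary gland markers in the library size, 30 genes were lower and 1 was higher, beside 19.8% and 27.9% of all tested genes. Without RasV12-replicate 1 the number lower was 25 (all tested genes 17.5%), and without RasV12-replicate 2 it was 26.

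RpS15Ab (FBgn0033555), on the plus strand of chromosome arm 2R from 10821676 to 10822399 in dm6, was the gene with the lowest fold change in all 3 comparisons to w1118-glands. It had 27.4, 29.5 and 31.3 CPM in RasV12-glands, 17.0, 22.8 and 22.2 CPM with lglRNAi;RasV12 and 26.9, 20.3 and 21.8 CPM in the PP, against 73.6, 65.0 and 71.6 CPM in w1118-glands. All 9 libraries with RasV12 were below all w1118-libraries. The log2 fold change was -1.25 in RasV12-glands (SE 0.13, adjusted p = 1.34e-05), -1.77 with lglRNAi;RasV12 (SE 0.13, adjusted p = 1.15e-06) and -1.61 in the PP (SE 0.13, adjusted p = 1.36e-06; edgeR's quasi-likelihood test). Its direction and call held on all 3 scales, with values of -0.82, -1.35 and -1.14 by library size alone and of -0.54 with RasV12 alone and -0.99 with lglRNAi;RasV12 on the log2(TPM + 1) scale, where it was called in the PP as well. Since RpS15Ab and RpS15Aa encode the same ribosomal protein and kallisto divides reads that match both, the split between them is uncertain.

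RpLP2 (FBgn0003274), a protein of the lateral stalk through which the ribosome recruits elongation factors, ranked next to last in all 3 comparisons. Its level was 635, 805 and 797 CPM with RasV12 alone, 588, 667 and 645 CPM with lglRNAi;RasV12 and 815, 765 and 588 CPM in the PP, against 1141, 1188 and 1209 CPM in w1118-glands, with no overlap between w1118-glands and any other group. The log2 fold change was -0.66 in RasV12-glands (SE 0.13, adjusted p = 0.00122), -0.90 with lglRNAi;RasV12 (SE 0.13, adjusted p = 0.000135) and -0.71 in the PP (SE 0.13, adjusted p = 0.000578; edgeR's quasi-likelihood test). By library size alone it was lower only in lglRNAi;RasV12-glands (-0.49), and on the log2(TPM + 1) scale it was not called in any comparison (0.04, -0.12 and -0.10). RpS15 and RpS27A, which encodes a small subunit protein fused to ubiquitin, completed the lowest 4 in RasV12-glands with log2 fold changes of -0.58 (SE 0.11) and -0.49 (SE 0.12), both called by TMM and by neither other scale.

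At the upper end, RpL7-like (FBgn0032404; chromosome arm 2L, 12056326 to 12058251, plus strand of dm6) was higher in all 3 groups with RasV12. It had 16.4, 16.2 and 17.3 CPM in RasV12-glands, 13.4, 14.2 and 14.9 CPM with lglRNAi;RasV12 and 25.1, 29.7 and 25.9 CPM in the PP, against 8.63, 12.5 and 11.6 CPM in w1118-glands. The groups did not overlap with w1118-glands. The log2 fold change was 0.60 in RasV12-glands (SE 0.13, adjusted p = 0.00191), 0.37 with lglRNAi;RasV12 (SE 0.13, adjusted p = 0.0284) and 1.30 in the PP (SE 0.13, adjusted p = 4.82e-06; quasi-likelihood test of edgeR), and each of the 3 scales called it higher. In lglRNAi;RasV12-glands it lost its call by TMM without w1118-replicate 1 (0.22), lglRNAi;RasV12-replicate 2 (0.36) or lglRNAi;RasV12-replicate 3 (0.33). The next 3 in RasV12-glands were RpL24-like (0.18), RpL5 (0.16) and RpL21 (0.07), which did not pass the test by TMM.

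**Figure D2:**
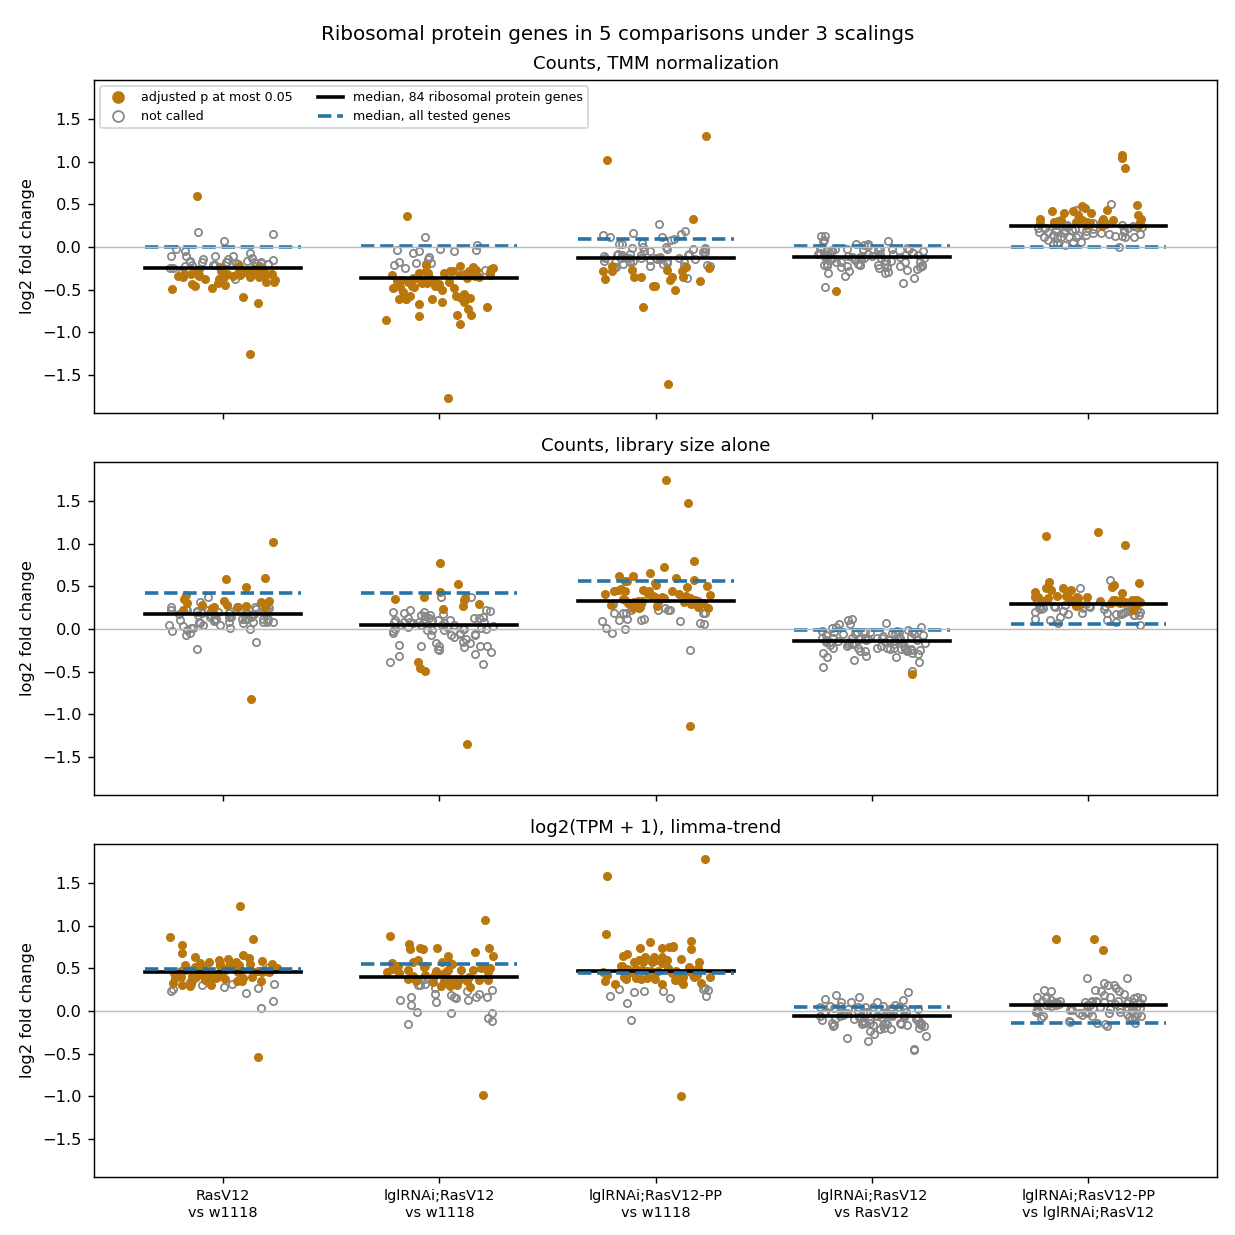
Log2 fold changes of the 84 tested ribosomal protein genes (points, filled where the adjusted p was at most 0.05) in 5 comparisons, by TMM-normalized counts (top), library size alone (middle) and log2(TPM + 1) (bottom), with the median of these genes as a solid line and that of all 9012 tested genes as a dashed line. Against w1118 the median ribosomal protein gene is at -0.25, -0.36 and -0.13 by TMM, but at 0.46, 0.40 and 0.46 on the log2(TPM + 1) scale.

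Most ribosomal protein genes were lower by TMM when RasV12 was combined with the l(2)gl RNAi. Compared to w1118-glands, 65 of the 84 genes were lower in lglRNAi;RasV12-glands and RpL7-like alone was higher, beside 23.5% lower and 28.2% higher among all tested genes. The median log2 fold change was -0.36 with an interquartile range of 0.26 (all tested genes 0.02 and 0.98), and RpS15Ab alone passed a log2 fold change of 1 in size, as did 7.87% of all tested genes in the lower and 12.1% in the higher direction. By subunit, 29 of 33 small and 35 of 48 large subunit genes were lower. After RpS15Ab and RpLP2 the lowest were RpS27A (-0.86, SE 0.12) and RpLP0-like (-0.81, SE 0.19), and after RpL7-like the highest were RpL17 (0.11), RpL5 (0.02) and RpL24-like (-0.02), none of them called. With library size alone, 10 genes were higher and 4 lower (median 0.04, all genes 0.43, with 48.3% higher and 8.6% lower), and on the log2(TPM + 1) scale 58 were higher and 1 was lower (median 0.40, all genes 0.55, with 64.5% higher and 4.59% lower). Leaving out any 1 library kept the number lower between 51 and 64.

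Of 7 further genes with known roles, 6 were lower in this comparison by TMM, as were 65 of all 84 ribosomal protein genes. RpS12, which in flies is needed for the recognition of Minute cells by their neighbours, was lower with a log2 fold change of -0.70 (SE 0.12), and RpS30, made as a fusion with a protein similar to ubiquitin, with -0.59 (SE 0.13). RpLP0, the base of the stalk, was lower with -0.33 (SE 0.09), RpS6, the substrate of S6 kinase, with -0.30 (SE 0.09), RpL11, which joins the large subunit together with RpL5, with -0.24 (SE 0.08), and RpS3, near the entry of the mRNA channel, with -0.21 (SE 0.08). With the replicate number as a block RpS3 lost its call (adjusted p = 0.0589, edgeR's quasi-likelihood test). RpL40, a further fusion with ubiquitin, had -0.14 (SE 0.09) and was not called. On the log2(TPM + 1) scale each of these 7 genes had a positive fold change, between 0.08 for RpS12 and 0.64 for RpL40.

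In the PP, a minority of ribosomal protein genes differed from w1118-glands by TMM. Of the 84 genes, 20 were lower and 3 were higher than in w1118-glands, beside 25.2% lower and 33.5% higher among all tested genes, and the median log2 fold change was -0.13 (all tested genes 0.10). RpL7-like and RpL24-like were higher and RpS15Ab was lower with a fold change past 1 on the log2 scale, where 15.7% of all tested genes were higher and 11.3% lower by this limit. The third gene called higher was RpL5, with 3089, 2959.6 and 2706 CPM in the PP, against 2245, 2292 and 2434 CPM in w1118-glands (log2 fold change 0.33, SE 0.08, adjusted p = 0.00452, edgeR's quasi-likelihood test). RpLP0-like was the fourth highest with 0.27 (SE 0.19, not called), and RpS15 (-0.51, SE 0.11) and RpS27A (-0.46, SE 0.12) were again among the lowest 4. With library size alone 58 genes were higher and 1 was lower (median 0.33, all genes 0.56, with 57.1% higher and 11.9% lower), and on the log2(TPM + 1) scale 71 were higher and 1 was lower (median 0.46, all genes 0.45, with 59.6% higher and 9.75% lower). The number lower by TMM was 9 without PP-replicate 3, the library with the longest fragments, 10 without w1118-replicate 2 and 11 without w1118-replicate 3.

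The l(2)gl RNAi on top of RasV12 left most ribosomal protein genes without a call. RpS15Ab was the only one of 84 to be called in lglRNAi;RasV12-glands compared to RasV12-glands (log2 fold change -0.51, SE 0.13, adjusted p = 0.027, edgeR's quasi-likelihood test), beside 5.1% lower and 7.18% higher among all tested genes. No ribosomal protein gene reached a log2 fold change of 1 in size, as 2.02% of all genes did in the higher and 1.3% in the lower direction. The median log2 fold change was -0.12 and 75 genes were below 0, of which 14 had an unadjusted p under 0.05, and 9 were lower with DESeq2. For the unadjusted p and for DESeq2 the shares of all tested genes are not given here. The lowest after RpS15Ab were RpLP0-like (-0.47, SE 0.19) and RpL39 (-0.42, SE 0.19), whereas RpL17 (0.13) and RpL6 (0.08) were at the upper end. Without RasV12-replicate 2 or 3, or without lglRNAi;RasV12-replicate 1 or 3, no gene was called, and on the log2(TPM + 1) scale RpS15Ab was not called either (-0.44), while 7.65% of all genes were higher and 2.8% lower. By library size alone it was the only call again (-0.53), beside 5.4% higher and 4.03% lower among all genes.

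Compared to entire lglRNAi;RasV12-glands, part of the ribosomal protein genes were higher in the PP. Of the 84 genes, 33 were higher and none lower by TMM (median log2 fold change 0.24), beside 20% higher and 17.8% lower among all tested genes. At an unadjusted p under 0.05, 48 ribosomal protein genes were higher and 0 lower, and with DESeq2 40 were higher and 0 lower. The shares of all tested genes by these last criteria are not given here. By library size alone 41 were higher and none lower (median 0.30, all genes 0.06, with 20.8% higher and 13.7% lower). On the log2(TPM + 1) scale 3 were higher and none lower (median 0.07), and the median of all genes was -0.14, with 12.2% higher and 29.1% lower. This count rested strongly on single libraries: 55 genes were higher without PP-replicate 3, 12 without PP-replicate 1 or without PP-replicate 2, 9 without lglRNAi;RasV12-replicate 1 and 19 without lglRNAi;RasV12-replicate 3. At the lower end of this comparison were RpL6 (0.02) and RpS26 (0.03), neither of them called.

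The 3 genes related to ribosome assembly factors had the highest fold changes between the PP and entire lglRNAi;RasV12-glands, and they were the 3 called on the log2(TPM + 1) scale. RpLP0-like (FBgn0033485, 2R) had 17.9, 16.8 and 17.5 CPM in the PP, against 7.14, 8.85 and 8.71 CPM in lglRNAi;RasV12-glands (log2 fold change 1.08, SE 0.19, adjusted p = 0.00138, edgeR's quasi-likelihood test). RpL24-like (FBgn0037899, 3R) had 71.4, 72.2 and 53.4 CPM in the PP, against 29.9, 32.5 and 33.3 CPM in lglRNAi;RasV12-glands (log2 fold change 1.04, SE 0.15, adjusted p = 0.000295). For RpL7-like the log2 fold change was 0.93 (SE 0.12, adjusted p = 0.000202). The PP did not overlap with entire glands for any of the 3, and 2 of them exceeded a log2 fold change of 1, as did 8.21% of all tested genes in the higher and 6.24% in the lower direction. Compared to w1118-glands, with 26.5, 35.5 and 35.1 CPM, RpL24-like was higher in the PP (log2 fold change 1.02, SE 0.15, adjusted p = 9.88e-05) and by TMM was not called in RasV12- or lglRNAi;RasV12-glands. RpLP0-like had 11.1, 14.6 and 17.5 CPM in w1118-glands, which overlapped with the PP, and was lower in lglRNAi;RasV12-glands only (-0.81, SE 0.19, adjusted p = 0.00445).

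**Figure D3:**
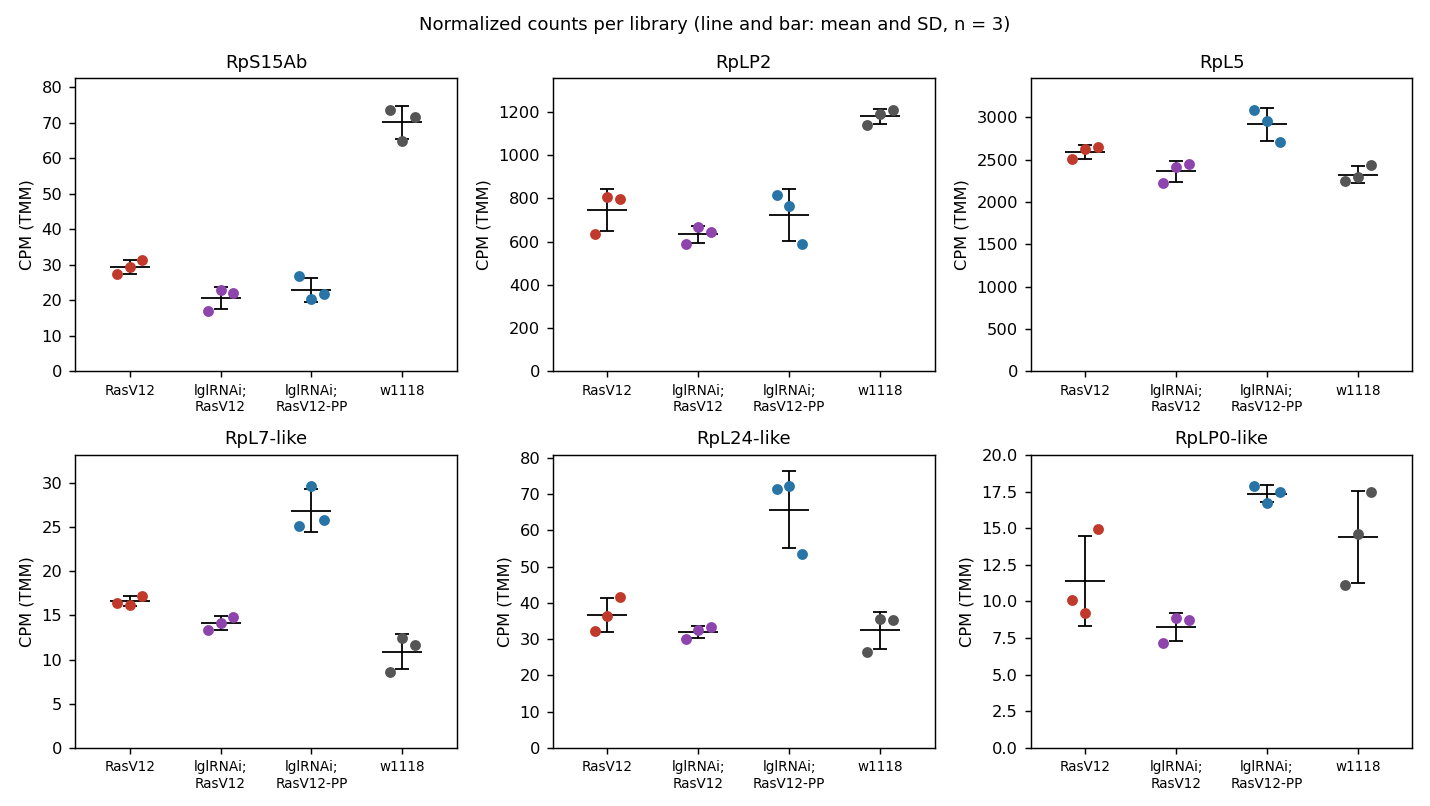
TMM-normalized CPM of RpS15Ab, RpLP2, RpL5, RpL7-like, RpL24-like and RpLP0-like in each library of RasV12, lglRNAi;RasV12, lglRNAi;RasV12-PP and w1118, with mean and SD of 3. RpS15Ab averages 29.4, 20.6 and 23.0 CPM in the groups with RasV12 and 70.1 CPM in w1118, and RpL24-like averages 65.7 CPM in the PP and between 31.9 and 36.7 CPM in the other groups.

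A number that closes each deposited file's name, whose meaning is not given, was taken as a possible batch. All w1118-libraries have the number of RasV12-replicates 2 and 3, and all libraries of entire lglRNAi;RasV12-glands that of RasV12-replicate 1, whereas entire lglRNAi;RasV12-glands share none with the PP or w1118-glands. RasV12-glands thus hold both numbers and link entire lglRNAi;RasV12-glands to w1118-glands. PP-replicate 1 has the number of the w1118-libraries, and PP-replicates 2 and 3 each have a number of their own. Leaving out RasV12-replicate 1, as above, compares RasV12- and w1118-glands of the same number. In that fit, which still held the libraries of the other groups, 25 genes were lower and 1 was higher, beside 17.5% lower and 21.7% higher among all tested genes. With the number as a factor, 37 genes were lower in RasV12-glands (all tested genes 17.5%), 12 with lglRNAi;RasV12 (5.93%) and 3 in the PP (15.3%), and none was called between the PP and lglRNAi;RasV12-glands, where 0.921% of all genes were higher and 0.2% lower. RpLP0-like, RpL24-like and RpL7-like then had log2 fold changes of 0.86, 0.89 and 0.80 there, with adjusted p of 0.45, 0.17 and 0.26 (edgeR's quasi-likelihood test). Entire lglRNAi;RasV12-glands were set against the PP and w1118-glands in this fit only through RasV12-glands, since they share no number with either. RasV12-replicate 1 was the only library to link them. The estimates for the PP rest on PP-replicate 1 alone, since PP-replicates 2 and 3 were taken up by their own numbers. Calls in the PP, or their absence, are therefore not replicated in this fit. RpS15Ab and RpLP2 kept negative log2 fold changes in all 3 comparisons to w1118-glands, RpS15Ab with -1.20, -1.62 and -1.38.

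To ask which genes moved relative to the rest of the set, whatever the scale between genotypes, normalization factors were computed from the ribosomal protein genes alone, a fit chosen after the other results were known. In RasV12-glands compared to w1118-glands, 4 genes were then higher and 6 lower (all tested genes 36.2% and 13.1%), in lglRNAi;RasV12-glands 9 and 15 (44.9% and 9.89%), and in the PP 8 and 11 (37.7% and 19.4%). Between lglRNAi;RasV12- and RasV12-glands none was called (9.54% and 2.3%), and in the PP compared to lglRNAi;RasV12-glands 4 were higher and none lower (11.4% and 32.2%), namely RpLP0-like, RpL24-like, RpL7-like and RpL14 (0.24). Called in the same direction in all 3 comparisons to w1118-glands were 6 genes below the rest, RpS15Ab, RpLP2, RpS15, RpS27A, RpS13 and RpL31, and 4 above it, RpL7-like, RpL24-like, RpL5 and RpL21. Among all tested genes, 5.89% were lower and 25.5% higher in all 3 comparisons by this fit. The 3 comparisons share the w1118-libraries. RpL5 was above the rest of the set by 0.39, 0.38 and 0.46 and RpL21 by 0.30, 0.31 and 0.32 in RasV12-glands, lglRNAi;RasV12-glands and the PP.

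Relative to the median ribosomal protein gene of the same library, RpL5 was at 1.54, 1.55 and 1.57 on the log2 scale in RasV12-glands, at 1.59, 1.54 and 1.60 with lglRNAi;RasV12 and at 1.69, 1.61 and 1.74 in the PP, against 1.13, 1.10 and 1.20 in w1118-glands. RpLP2 was at -0.43, -0.16 and -0.16 in RasV12-glands, at -0.33, -0.31 and -0.33 with lglRNAi;RasV12 and at -0.23, -0.34 and -0.46 in the PP, against 0.16, 0.15 and 0.19 in w1118-glands. RpLP2 was thus above the median gene in all w1118-libraries and below it in all others. The 15 genes below the rest in lglRNAi;RasV12-glands had a median transcript length of 604 bases, against 635 bases for all 81 genes without the suffix -like, and Spearman's rho between length and fold change over these genes was 0.08 for RasV12-glands, 0.21 for lglRNAi;RasV12-glands and 0.14 for the PP, each compared to w1118-glands. Between the PP and lglRNAi;RasV12-glands rho was -0.18. These are descriptions over genes that share the libraries, and the part of the fragment length in the fold changes was not tested.

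**Figure D4:**
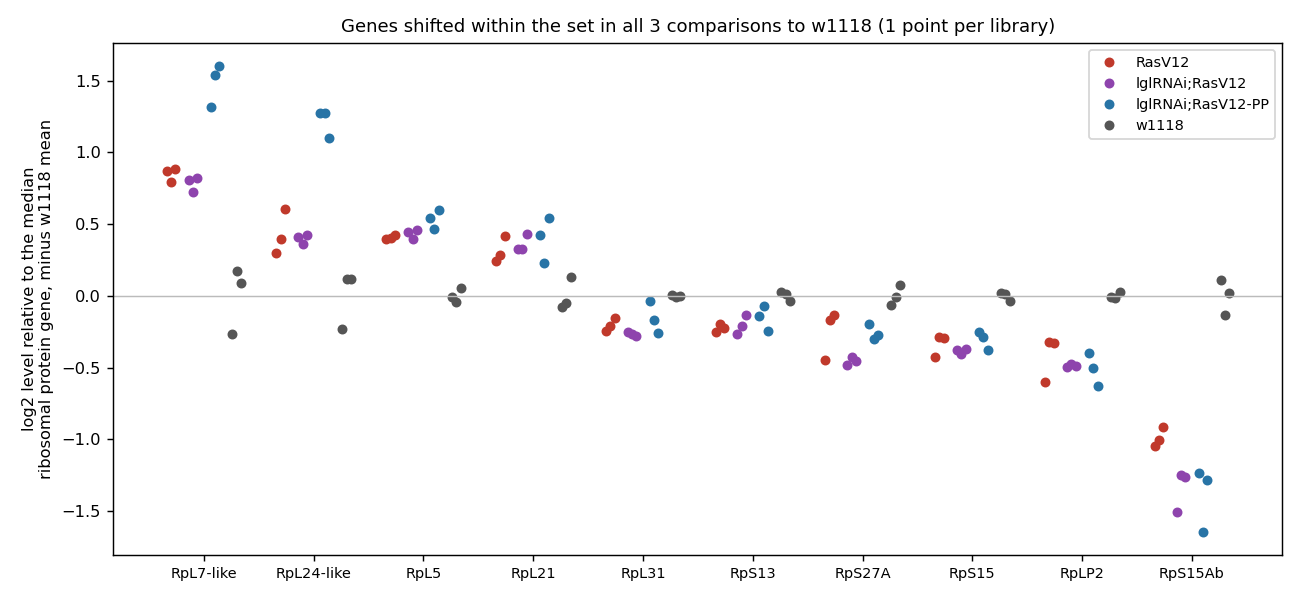
Log2 level of 10 ribosomal protein genes relative to the median gene of the set in the same library, minus the mean of w1118, for RasV12, lglRNAi;RasV12, lglRNAi;RasV12-PP and w1118 (1 point per library). The genes were chosen by their calls in these comparisons, so that the separation is a description: the 4 genes on the left lie above and the 6 genes on the right below all w1118-libraries in every library with RasV12.

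Several ribosomal proteins are encoded by more than one gene, and the share of the minor copy was computed for 14 pairs, the -like genes with their namesakes included. Apart from the -like genes, both copies passed the filter on low counts in 3 pairs. RpS15Ab made 2.75%, 2.78% and 2.94% of the summed TPM of RpS15Aa and RpS15Ab in RasV12-glands, 2.04%, 2.49% and 2.42% with lglRNAi;RasV12 and 2.31%, 1.91% and 2.14% in the PP, against 5.53%, 4.96% and 5.02% in w1118-glands. RpS14b, which lies next to RpS14a on the X chromosome, made 30.3%, 29.3% and 28.9% in RasV12-glands, 31.6%, 30.6% and 30.9% with lglRNAi;RasV12 and 29.4%, 29.6% and 30.5% in the PP, against 27.2%, 26.8% and 26.9% in w1118-glands. RpL34a made 12.1% to 16.0% of the sum with RpL34b in RasV12-glands, 12.8% to 13.8% with lglRNAi;RasV12 and 14.6% to 17.3% in the PP, against 14.2% to 15.9% in w1118-glands. The groups with RasV12 were thus all below w1118-glands for RpS15Ab and all above it for RpS14b, and the groups overlapped for RpL34a except for lglRNAi;RasV12-glands, which were below w1118-glands. An exact permutation test of 3 libraries against 3 cannot give a p below 0.1, and none was computed. Because these copies are similar in sequence, the division of their reads is uncertain.

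**Figure D5:**
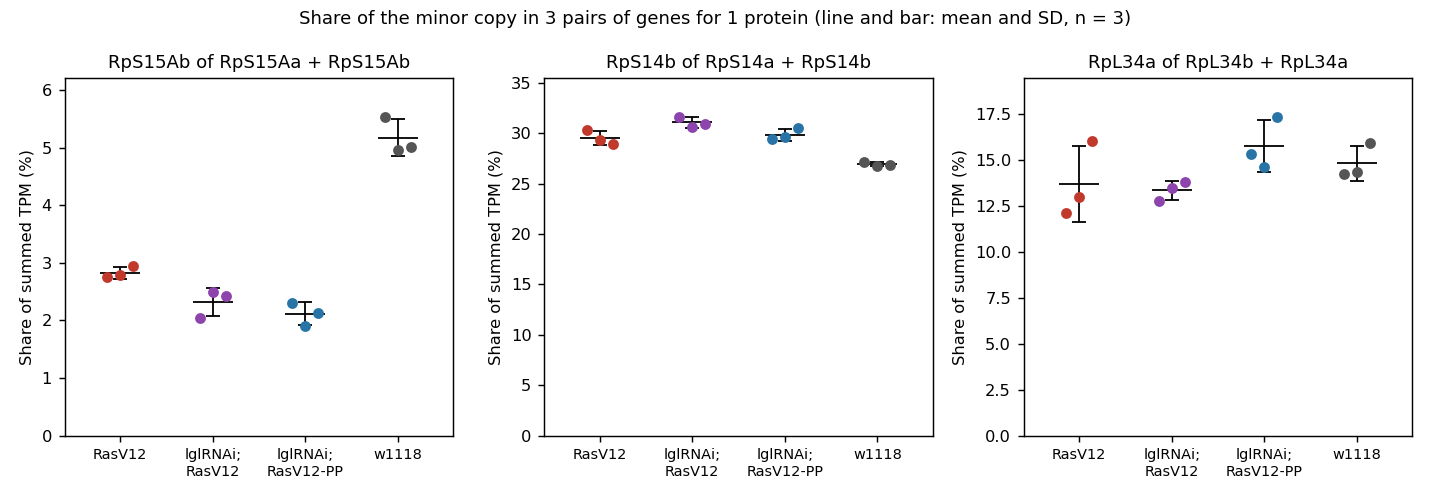
Share of the minor copy in the summed TPM of both copies, in percent, for RpS15Ab, RpS14b and RpL34a in RasV12, lglRNAi;RasV12, lglRNAi;RasV12-PP and w1118, with 1 point per library and mean and SD of 3. The share of RpS15Ab averages 2.82%, 2.32% and 2.12% in the groups with RasV12 and 5.17% in w1118.

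Genes acting with the ribosome were compared by lists, and their direction depended on the scale as well. Of 5 ribosome partners, 2 were lower with RasV12 alone and 3 with lglRNAi;RasV12 compared to w1118-glands by TMM, and 2 were higher in the PP, beside 23.1% and 23.5% lower and 33.5% higher among all tested genes. By library size alone none of the 5 was lower and 2, 1 and 4 were higher, beside 49.3%, 48.3% and 57.1% higher among all tested genes. On the log2(TPM + 1) scale all 5 were higher in each comparison, as were 61.9%, 64.5% and 59.6% of all tested genes. The small subunit gene sta, outside the set only by name, was at -0.28, -0.40 and -0.21 by TMM (called in the first 2 comparisons) and the ribosome-bound scaffold Rack1 at -0.41, -0.42 and -0.14 (called in the same 2). Neither was called by library size alone in these 2 comparisons, with 0.14 and 0.0040 for sta and 0.02 and -0.01 for Rack1. The third partner lower in lglRNAi;RasV12-glands was Tctp, with an adjusted p of 0.0499 by TMM and of 0.0603 with the replicate number as a block (edgeR's quasi-likelihood test). Nacalpha and bic, whose proteins form the complex that binds nascent chains, were higher in the PP by 0.44 and 0.41.

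Of 9 elongation and release factors, 4, 5 and 4 were lower and none higher by TMM (all tested genes 23.1%, 23.5% and 25.2% lower). By library size alone 9.21%, 8.6% and 11.9% of all tested genes were lower and 49.3%, 48.3% and 57.1% higher. Of the 9 factors, 1, 2 and 1 were lower and 3 higher in each comparison on that scale. On the log2(TPM + 1) scale 5.43%, 4.59% and 9.75% of all tested genes were lower and 61.9%, 64.5% and 59.6% higher. Of the 9 factors, 0, 1 and 1 were then lower and 5, 4 and 4 higher. By TMM eEF1delta was the lowest in each comparison (-0.89, -1.51 and -1.53), and eRF1 and eRF3, the release factors, were lower in all 3 (between -0.48 and -0.76). Neither release factor was called on the log2(TPM + 1) scale, and eEF1delta was called lower with lglRNAi;RasV12 (-0.76) and in the PP (-0.96). The highest fold change, that of eEF1alpha2 with 3.34 in RasV12-glands, was not called, and its levels were between 0.187 and 6.12 CPM in RasV12-glands and between 0.0479 and 0.306 CPM in w1118-glands.

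Of 27 initiation factors 10, 14 and 11 were lower and 2, 2 and 1 higher by TMM, whereas by library size alone 0, 0 and 1 were lower and 12, 8 and 14 higher. Among all tested genes, 23.1%, 23.5% and 25.2% were lower and 25.8%, 28.2% and 33.5% higher by TMM. By library size alone 9.21%, 8.6% and 11.9% of all tested genes were lower and 49.3%, 48.3% and 57.1% higher. None of the 27 factors was lower and 21, 18 and 15 were higher on the log2(TPM + 1) scale. On this scale 5.43%, 4.59% and 9.75% of all tested genes were lower and 61.9%, 64.5% and 59.6% higher. By TMM eIF4A, the helicase that unwinds mRNA, was highest in RasV12-glands (0.47) and lglRNAi;RasV12-glands (0.48) and eIF3c in the PP (0.56), whereas eIF2gamma was lowest in both groups of entire glands (-0.63 and -0.74) and eIF5 in the PP (-0.75). The medians of the initiation factors were -0.21, -0.31 and -0.19 by TMM and 0.22, 0.09 and 0.28 by library size alone, so that they changed sign with the scale as those of the ribosomal protein genes did.

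Of 10 quantified regulators of ribosomal protein genes, 4, 5 and 5 were higher and 2, 2 and 2 lower by TMM in RasV12-glands, lglRNAi;RasV12-glands and the PP compared to w1118-glands, beside 25.8%, 28.2% and 33.5% higher and 23.1%, 23.5% and 25.2% lower among all tested genes. By library size alone 6, 8 and 6 were higher and 2, 1 and 2 lower. On that scale 49.3%, 48.3% and 57.1% of all tested genes were higher and 9.21%, 8.6% and 11.9% lower. On the log2(TPM + 1) scale 7, 8 and 6 regulators were higher and 1, 0 and 2 lower. Here 61.9%, 64.5% and 59.6% of all tested genes were higher and 5.43%, 4.59% and 9.75% lower. Higher in all 3 comparisons by TMM and called so on the other scales too were Thor, the repressor of cap-dependent initiation downstream of TOR (0.64, 1.26 and 1.05), S6k, the kinase of RpS6 (0.34, 0.83 and 0.49), and Xrp1 (0.80, 0.87 and 0.35) with its partner Irbp18 (1.09, 0.89 and 0.80), transcription factors that in flies respond to a reduced dose of ribosomal protein genes. Xrp1 had between 1699 and 1882 CPM in RasV12-glands, against 851 to 1188 CPM in w1118-glands. Lower in all 3 by TMM were Dref (-1.27, -0.80 and -1.07) and M1BP (-0.83, -0.71 and -1.01), which bind promoters of ribosomal protein genes in flies. Both kept this direction by library size alone, where Dref in lglRNAi;RasV12-glands (-0.40) was not called. On the log2(TPM + 1) scale both were called lower in the PP (-0.50 for Dref and -0.45 for M1BP), and in RasV12-glands Dref (-0.56) but not M1BP (-0.14) was called. In lglRNAi;RasV12-glands neither was called on this scale, with values of -0.0488 for Dref and 0.0470 for M1BP. Myc, an activator of ribosome synthesis, was at -0.16 in RasV12-glands without a call and higher in lglRNAi;RasV12-glands (0.97) and the PP (0.76), and was also higher in lglRNAi;RasV12-glands than in RasV12-glands (1.13). Of the list, 4 were higher in that comparison and none lower by TMM, beside 7.18% higher and 5.1% lower among all tested genes. In the PP compared to lglRNAi;RasV12-glands raptor (0.31) was higher and Xrp1 (-0.51), S6k (-0.35), larp (-0.56) and M1BP (-0.30) were lower. Of all tested genes, 20% were higher and 17.8% lower there.

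Genes of the mitochondrial ribosome, of which 73 were tested, had medians of -0.06, -0.22 and 0.12 by TMM in the 3 comparisons to w1118-glands and of 0.32 between the PP and lglRNAi;RasV12-glands. By calls, 4, 22 and 8 were lower and 7, 5 and 13 higher than in w1118-glands, beside 23.1%, 23.5% and 25.2% lower and 25.8%, 28.2% and 33.5% higher among all tested genes. In the PP compared to lglRNAi;RasV12-glands 18 were higher and none lower, beside 20% higher and 17.8% lower among all genes. By library size alone 24, 15 and 46 of the 73 were higher and 0, 3 and 0 lower than in w1118-glands. On that scale 49.3%, 48.3% and 57.1% of all tested genes were higher and 9.21%, 8.6% and 11.9% lower. On the log2(TPM + 1) scale 58, 45 and 55 of the 73 were higher and 0, 1 and 0 lower. Here 61.9%, 64.5% and 59.6% of all tested genes were higher and 5.43%, 4.59% and 9.75% lower. The difference between the mitochondrial and the cytosolic set was not tested.

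Markers of other tissues varied between the groups. By TMM all 6 fat body genes were lower in each of the 3 groups compared to w1118-glands. Of these, 6, 2 and 6 were lower in RasV12-glands, lglRNAi;RasV12-glands and the PP by library size alone, and on the log2(TPM + 1) scale 5, 0 and 6. Their summed level was 7714 to 11255 TPM with RasV12 alone, 11618 to 16442 TPM with lglRNAi;RasV12 and 3232 to 3701 TPM in the PP, against 11316.5 to 26812 TPM in w1118-glands. Of 6 hemocyte genes, crq was called higher in all 3 groups by TMM and Hml in the PP, beside 25.8%, 28.2% and 33.5% higher among all tested genes. In RasV12-glands the other 5 hemocyte genes were below 0 by TMM without a call (median of the list -0.61). With lglRNAi;RasV12 4 of the 6 were above 0, and in the PP all 6. By library size alone 1, 1 and 4 hemocyte genes were higher, beside 49.3%, 48.3% and 57.1% of all tested genes. On the log2(TPM + 1) scale 1, 1 and 6 of them were higher, beside 61.9%, 64.5% and 59.6% of all tested genes. The sums of the 6 hemocyte genes were 59.9 to 76.3 TPM in RasV12-glands, 63.2 to 99.3 TPM with lglRNAi;RasV12 and 70.8 to 81.8 TPM in the PP, against 21.4 to 23.7 TPM in w1118-glands. He, which defines hemocytes, stayed at or below 0.587 CPM in all libraries. The 4 quantified germline genes were summed to at most 0.214 TPM. Of 5 markers of the imaginal ring and duct, 4 were tested, of which 3, 2 and 1 were lower and none higher by TMM, beside 23.1%, 23.5% and 25.2% lower among all tested genes. In the PP 1 of these 4 was above 0 by TMM and 3 by library size alone. By library size 1 was called higher and 1 lower, beside 57.1% and 11.9% of all tested genes. The sum of the 5 markers did not exceed 2.73 TPM. The part of these tissues in the levels of ribosomal protein genes was not tested, and in bulk libraries fewer cells of a type and less RNA per cell cannot be told apart.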

How the data were processed

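Poly(A)-selected libraries of 12 gland samples had been sequenced as paired-end reads. The authors pseudoaligned the reads with kallisto 0.44.0 and deposited, for each of 30503 transcripts, estimated counts (expected counts, not normalized) and TPM, which kallisto scales to 1000000 per library. Estimated counts of transcripts that match several genes are divided by kallisto's model. Here transcripts were assigned to genes with the Ensembl annotation of dm6 (30279 matched, and the unmatched held 0.197% to 0.359% of the counts). Counts were summed per gene and rounded.

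Genes were filtered by edgeR's filterByExpr with a minimum count of 10, normalized by TMM and fitted across the 12 libraries together with edgeR's quasi-likelihood test (edgeR 4.0.16, R 4.3.3), with Benjamini-Hochberg adjustment over 9012 genes in each of 5 comparisons and a call at an adjusted p of at most 0.05. The scripts were tested on simulated data. Alternatives were library size alone, DESeq2 size factors, factors without the ribosomal protein genes, DESeq2 1.42.0, limma 3.58.1 on log2(TPM + 1) and log2(TPM + 0.1), no filter, the compared groups only, the replicate number or the number that closes the file names as a factor, and each replicate left out. After the data were seen, 2 were added: factors from ribosomal protein genes alone, and library size without 10 salivary gland markers.

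The 4 highest and 4 lowest genes of each comparison to w1118-glands are named, 3 and 3 in the other comparisons, as are the 5 highest and lowest in TPM, duplicate copies, -like genes, genes with known further roles, untested genes, and the extremes of each list. A result that falls under this rule is not reported here. RpS13, RpL31 and RpL14 were named after their values were seen, as were further genes of the lists. The genes and lists were chosen with earlier results of these data known.

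Same-numbered replicates deviated together in RasV12- and w1118-libraries (Pearson's r of 0.25, 0.21 and 0.33 across genes) and in lglRNAi;RasV12- and w1118-libraries (0.22, 0.23 and 0.24). Across the ribosomal protein genes alone r was 0.32, -0.26 and 0.71 in the first case and 0.31, 0.06 and 0.56 in the second. No source states a pairing, so that one is possible there but not settled. The reported test used no pairing, and the replicate number entered an alternative fit as a block. In the other comparisons at least 1 pair had r below 0.1. Such values do not settle whether these libraries were paired. The highest r between any pair of libraries was 0.997. Promoter motifs, sequences, Tor and nos were not analysed here.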

Additional observations from a re-analysis of the deposited data

How the results depend on the processing

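All counts below are of 84 tested ribosomal protein genes unless stated, as higher and lower. With TMM factors computed without these genes all counts were those of the report. Library size alone gave 18 and 1 in RasV12-glands, 10 and 4 with lglRNAi;RasV12 and 58 and 1 in the PP compared to w1118-glands. On the log2(TPM + 1) scale the counts were 70 and 1, 58 and 1, and 71 and 1, and on the log2(TPM + 0.1) scale 69 and 1, 58 and 1, and 71 and 1. On both TPM scales none was lower in lglRNAi;RasV12-glands than in RasV12-glands, and 3 were higher in the PP than in lglRNAi;RasV12-glands. Factors from ribosomal protein genes alone gave 4 and 6, 9 and 15, 8 and 11, 0 and 0, and 4 and 0 over the 5 comparisons. Without the filter on low counts (89 genes), 2 and 27 were called in RasV12-glands, 2 higher in lglRNAi;RasV12-glands, 13 lower in the PP, and 21 higher in the PP compared to lglRNAi;RasV12-glands. With only the compared groups in the fit, no gene was higher in lglRNAi;RasV12-glands than in w1118-glands, 2 were lower than in RasV12-glands and 16 were higher in the PP than in lglRNAi;RasV12-glands. DESeq2 gave 40 lower in the PP compared to w1118-glands and 9 lower in lglRNAi;RasV12-glands compared to RasV12-glands, and edgeR with DESeq2 size factors 34 lower in the PP. With the number that closes the file names as a factor, none was higher and 12 were lower in lglRNAi;RasV12-glands, 3 were lower in the PP, and none was called in the comparisons without w1118-glands. In this last fit the PP was estimated from PP-replicate 1 alone, and RasV12-replicate 1 alone linked entire lglRNAi;RasV12-glands to the other groups. The causes of the differences between the settings were not tested.

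Leaving out each replicate in turn gave 25 to 37 genes lower in RasV12-glands, 51 to 64 lower and 0 to 1 higher with lglRNAi;RasV12 and 9 to 26 lower and 3 to 4 higher in the PP compared to w1118-glands, 0 to 2 lower in lglRNAi;RasV12-glands compared to RasV12-glands, and 9 to 55 higher in the PP compared to lglRNAi;RasV12-glands. With the replicate number as a block, the counts were 1 and 39, 1 and 62, 3 and 17, 0 and 1, and 28 and 0, none of which moved by more than 1.5 times.

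Fold changes that turned positive were, on the log2(TPM + 1) scale, those of RpLP2 (0.0406), RpS15 (0.12) and RpS27A (0.21) in RasV12-glands, of RpL11 (0.52), RpL24-like (0.74), RpL40 (0.64), RpLP0 (0.43), RpS12 (0.075), RpS3 (0.56), RpS30 (0.18) and RpS6 (0.46) in lglRNAi;RasV12-glands, and of RpS15 (0.10) and RpS27A (0.15) in the PP, with log2(TPM + 0.1) giving values equal to 2 decimals except for RpL24-like (0.75). In lglRNAi;RasV12-glands, RpL11, RpL40, RpLP0, RpS3 and RpS6 also turned positive with library size alone (0.17, 0.27, 0.0787, 0.20 and 0.11) and with factors from ribosomal protein genes alone (0.12, 0.22, 0.0285, 0.15 and 0.0604). RpL24-like turned positive in both fits as well (0.34 with the latter factors). In the PP RpS27A turned positive with library size alone (0.000136).

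The 8 untested genes had at most 11 counts in a library. RpS3 was among the genes that lost their call in lglRNAi;RasV12-glands under the replicate block (-0.21).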
